A study of Mus musculus with 8 samples.

Results

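The Myc, Max and Mxd network is a set of transcription factor genes whose proteins pair through a shared helix-loop-helix and leucine zipper region. Its 10 genes, Mycn, Myc, Mycl, Max, Mxd1, Mxd3, Mxd4, Mxi1, Mnt and Mlx, were taken by symbol from a table of 55416 gene identifiers, and all 10 were found and passed the filter on low counts. The RNA came from MB21 cells, a mouse medulloblastoma line labelled as a ptch mutant. Ptch1 encodes the receptor that restrains Hedgehog signalling. The MB21 cells were cultured without attachment in DMEM/F12 with B27, and every library, treated or not, comes from this single mutant line. There were 4 libraries of cells given 10 uM DS-1-38, a benzarone derivative, for 5 days (called DS38), and 4 libraries of cells given the DMSO vehicle for 5 days (called DMSO). The labels do not say that libraries of a group were separate cultures, so the p-values cover only the spread among libraries of a group, and that spread may be technical.

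Myc proteins bind DNA only when paired with Max, at the E-box sequence CACGTG and related sites, and recruit histone acetyltransferase complexes that raise transcription. Mxd proteins, Mxi1 and Mnt compete for Max, bind the same sites and recruit the Sin3 corepressor with its histone deacetylases, so the balance between the partners sets the output of shared target genes. Mlx is a parallel partner that pairs with the glucose-sensing Mondo proteins and also with some Mxd proteins and Mnt. In the developing cerebellum, Mycn is induced by Sonic hedgehog in granule neuron progenitors, the cells from which this tumour type arises, and Mxd genes are commonly linked to exit from the cell cycle, apart from Mxd3, which is found in cycling cells.

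With DS-1-38, 5 of the 10 genes rose and 0 fell. The genes that rose were Mycl, Max, Mxd1, Mxd4 and Mlx, so both an activator and repressors of the network were among them. Their fold changes were small, from 1.09 for Max to 1.33 for Mycl. Mycn, Myc, Mxi1, Mxd3 and Mnt did not pass the test. The test was edgeR's quasi-likelihood test with Benjamini-Hochberg adjustment over the 15133 genes tested, and a gene was called at an adjusted p under 0.05. At that threshold 18.8% of all tested genes rose and 20.7% fell, so the count of rises among so few genes is read beside a background in which 39.5% of genes changed. At an unadjusted p under 0.05 in the edgeR test, the same 5 members were called and 0 of these were lower in DS38. At least 39.5% of all tested genes pass that looser threshold, so this count adds nothing to the one above. DESeq2 also called 0 falls among the members, but 4 rises, as Mlx lost its call. The count of rises was 3 without DS38 replicate 2 and 3 without a filter on low counts, where Max and Mlx lost their calls. Mlx alone lost its call, leaving 4 rises, under limma-voom, without the robust option and with a replicate block. The same held without DS38 replicate 4 and without DMSO replicate 2, 3 or 4.

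**Figure D1:**
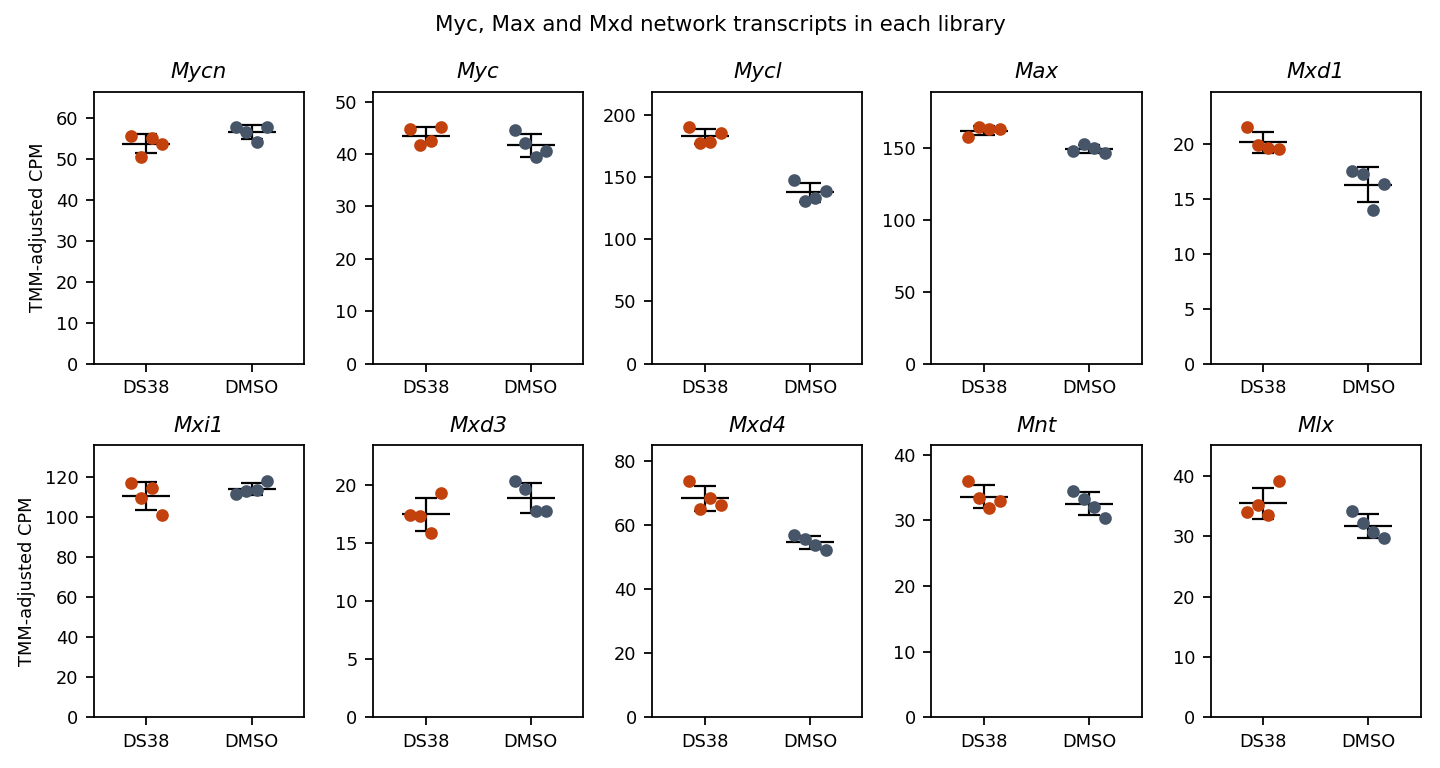
CPM (reads of a gene relative to the TMM-adjusted total of its library, y axis from 0) of each network gene in the 4 DS38 libraries and the 4 DMSO libraries, with points for libraries and bars for the mean ± SD. The groups stand fully apart for Mycl, Max, Mxd1 and Mxd4, with Mycl at 177 CPM or more in DS38 and at 148 CPM or less in DMSO, and they overlap for the other genes.

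Library totals ran from 17142397 to 28476019 counts in DS38 and from 18878556 to 25582159 counts in DMSO, and each member had between 257 and 5149 counts in every library. CPM gives a gene's reads relative to the total of its library, adjusted by TMM factors. The labelled cell type was checked with 8 markers of granule neuron progenitors, whose summed level was 1675 to 1735 CPM in DS38 and 1556 to 1638 CPM in DMSO. These markers did not move together: 4 rose and 2 fell, with log2 fold changes of 0.71 for Barhl1 and 0.60 for Atoh1, against -0.60 for Gli1 and -0.16 for Zic1. The 5 microglia markers summed to at most 0.137 CPM in DS38 and 0.0543 CPM in DMSO, with Cx3cr1 and C1qa at 0 counts in all libraries. The 5 oligodendrocyte markers summed to 8.73 to 9.52 CPM in DS38 and 8.94 to 11.3 CPM in DMSO, with Mag at 0, and of the 3 tested, Cnp fell (log2 fold change -0.33). The 4 endothelial markers summed to 1.44 to 1.78 CPM in DS38 and 0.801 to 1.79 CPM in DMSO, with Cldn5 at 0. A count of 0 allows up to 0.175 CPM in the shallowest library, counting error only. The 5 astrocyte markers summed to 111 to 114 CPM in DS38 and 119 to 124 CPM in DMSO, and the 6 fibroblast markers to 53.2 to 57.1 CPM in DS38 and 74.1 to 78.7 CPM in DMSO, and no marker of either list was at 0 counts in all libraries. Slc1a3 and Pdgfra, which neural progenitors also express, made up most of these sums and fell (log2 fold changes of -0.13 and -0.52). The rarer markers of these lists did not follow the sums: Gfap rose (0.75, at 3.06 CPM in DS38 and 1.83 CPM in DMSO), Col1a1 rose (1.81, at 0.797 CPM in DS38 and 0.232 CPM in DMSO), and the 4 tested fibroblast markers had a median log2 fold change of 0.56. The part of these marker shifts in the results was not tested. In RNA from whole cultures, fewer cells of a type and less RNA per cell cannot be told apart.

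The promoter windows of the members are shown first, since the network acts through the E-box. RefSeq windows of 250 bases before to 50 bases after the transcription start, on build GRCm38.p6, were matched for 9 of the 10 genes, all but Myc. The counts rest on another build, so the windows serve for sequence alone. The E-box CACGTG, which reads the same on both strands, was found in the windows of 4 of the 9 genes (44.4%), namely Max, Mxd4, Mnt and Mlx. It was found in 7.15% of the 32851 windows of the same length and in at least one window of 8.09% of the 27025 genes that have one. Among the 10150 tested genes with a matched window, the closer background since all members were tested, the share was 11.6%. It was not in the windows of Mycn, Mycl, Mxd1 or Mxd3, nor in the 3 windows of Mxi1. The 4 windows that hold the E-box are printed because they show where it lies, and that of Mycl because this gene had the largest change of the network. Each runs 5′ to 3′ on the gene's own strand, in lower case with the E-box in capitals. The windows are chr12:76962199-76962498, minus strand, for Max, chr5:34187661-34187960, minus strand, for Mxd4, chr11:74830674-74830973, plus strand, for Mnt, chr11:101087040-101087339, plus strand, for Mlx, and chr4:122995681-122995980, plus strand, for Mycl.
Max: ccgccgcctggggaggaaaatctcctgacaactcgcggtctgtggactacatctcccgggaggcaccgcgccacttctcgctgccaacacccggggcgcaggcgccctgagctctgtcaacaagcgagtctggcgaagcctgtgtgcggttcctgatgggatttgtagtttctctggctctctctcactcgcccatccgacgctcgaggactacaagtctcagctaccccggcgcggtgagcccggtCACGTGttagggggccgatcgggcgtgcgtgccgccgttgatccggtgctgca
Mxd4: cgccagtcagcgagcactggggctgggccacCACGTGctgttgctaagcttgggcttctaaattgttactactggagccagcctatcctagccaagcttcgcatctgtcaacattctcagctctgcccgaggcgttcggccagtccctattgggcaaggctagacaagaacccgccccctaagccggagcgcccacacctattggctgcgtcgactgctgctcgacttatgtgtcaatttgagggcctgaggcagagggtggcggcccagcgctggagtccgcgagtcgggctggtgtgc
Mnt: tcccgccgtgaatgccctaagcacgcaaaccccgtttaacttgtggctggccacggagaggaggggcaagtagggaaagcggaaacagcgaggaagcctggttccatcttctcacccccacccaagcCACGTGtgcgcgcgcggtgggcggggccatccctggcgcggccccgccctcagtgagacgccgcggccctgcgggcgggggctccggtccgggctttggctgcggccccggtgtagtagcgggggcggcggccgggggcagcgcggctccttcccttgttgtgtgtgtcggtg
Mlx: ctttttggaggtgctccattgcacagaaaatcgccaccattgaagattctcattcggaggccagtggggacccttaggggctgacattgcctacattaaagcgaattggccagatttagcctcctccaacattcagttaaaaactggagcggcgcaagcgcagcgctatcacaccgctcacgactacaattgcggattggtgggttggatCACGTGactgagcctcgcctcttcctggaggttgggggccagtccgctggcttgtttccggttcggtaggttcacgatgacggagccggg
Mycl: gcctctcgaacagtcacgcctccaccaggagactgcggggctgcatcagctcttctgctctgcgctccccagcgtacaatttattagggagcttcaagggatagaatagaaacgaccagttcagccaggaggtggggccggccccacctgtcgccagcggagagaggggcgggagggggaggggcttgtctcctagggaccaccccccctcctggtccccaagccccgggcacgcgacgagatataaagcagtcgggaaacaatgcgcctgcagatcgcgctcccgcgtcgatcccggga

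The first base of the E-box lay 3 bases before the annotated start in Max, 40 bases before it in Mlx, 123 bases before it in Mnt and 219 bases before it in Mxd4. Of the genes with the E-box, Max, Mxd4 and Mlx rose and Mnt did not pass the test. Of those without it in these windows, Mycl and Mxd1 rose and Mycn, Mxi1 and Mxd3 did not pass. A match is a description of the sequence, and binding was not measured.

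Among the activators, Mycl was the member with the largest change. It encodes L-Myc, the Myc protein with the weakest transforming activity. Mycl (ENSMUSG00000028654) stood at 189.9, 177, 178 and 186 CPM in DS38 replicates 1 to 4, against 148, 131, 133 and 138 CPM in DMSO replicates 1 to 4. All DS38 libraries were above all DMSO libraries. The log2 fold change was 0.41 ± 0.044 SE (183 ± 6.16 CPM in DS38 and 137 ± 7.47 CPM in DMSO, SD, n = 4 each; edgeR adjusted p = 8.55e-07), a 1.33-fold rise.

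Mycn, the Myc gene most tied to Hedgehog signalling, did not pass the test. Mycn (ENSMUSG00000037169) stood at 55.7, 50.5, 55.1 and 53.7 CPM in DS38, against 57.8, 56.8, 54.3 and 57.8 CPM in DMSO. The groups overlapped, although DS38 replicate 2 was lower than any other library. The log2 difference was -0.08 ± 0.045 SE (edgeR adjusted p = 0.186). Myc (ENSMUSG00000022346), which encodes c-Myc, stood at 44.8, 41.7, 42.5 and 45.1 CPM in DS38, against 44.5, 42.1, 39.4 and 40.5 CPM in DMSO. The groups overlapped here too, with a log2 difference of 0.06 ± 0.051 SE (edgeR adjusted p = 0.359).

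Max, the partner that every Myc protein needs, rose by little but evenly. Max (ENSMUSG00000059436) stood at 158, 164, 163 and 163 CPM in DS38, against 148, 153, 150.0 and 147 CPM in DMSO. The groups did not overlap, and the spread was the smallest of the network, with a coefficient of variation of 1.92% in DS38 and 1.86% in DMSO. The log2 fold change was 0.12 ± 0.037 SE (162 ± 3.11 CPM in DS38 and 149 ± 2.78 CPM in DMSO, SD, n = 4 each; edgeR adjusted p = 0.0153). The call was lost without DS38 replicate 2 (edgeR adjusted p = 0.0502) and without a filter on low counts (0.0802), and adjusted p-values over the 18 alternatives tried ran from 0.000738 to 0.0802.

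**Figure D2:**
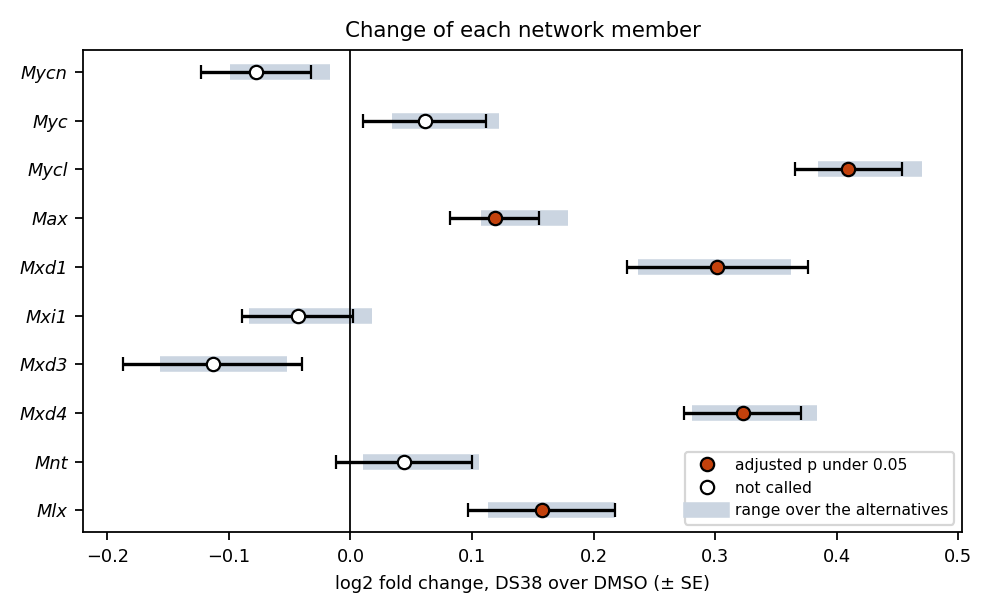
Log2 fold change of each network gene, DS38 over DMSO (x axis), with its standard error; filled points passed the test, open points did not, and grey bands span the values under the 18 alternative analyses. Mycl lies farthest to the right at 0.41, followed by Mxd4 at 0.32 and Mxd1 at 0.30, and the band of Mxi1 crosses 0.

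Among the repressors, Mxd4 and Mxd1 passed the test. Mxd4 (ENSMUSG00000037235), a Max partner that recruits Sin3, stood at 73.7, 64.9, 68.2 and 66.0 CPM in DS38, against 56.7, 55.4, 53.8 and 52.1 CPM in DMSO. All DS38 libraries were above all DMSO libraries. The log2 fold change was 0.32 ± 0.048 SE (68.2 ± 3.91 CPM in DS38 and 54.5 ± 2.00 CPM in DMSO, SD, n = 4 each; edgeR adjusted p = 3.88e-05), a 1.25-fold rise.

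Mxd1 (ENSMUSG00000001156), the founding member of the Mxd family, stood at 21.5, 19.9, 19.6 and 19.5 CPM in DS38, against 17.6, 17.2, 14.0 and 16.4 CPM in DMSO. The groups did not overlap, DS38 replicate 1 stood above the other DS38 libraries and DMSO replicate 3 was the lowest of all. The log2 fold change was 0.30 ± 0.074 SE (20.1 ± 0.928 CPM in DS38 and 16.3 ± 1.63 CPM in DMSO, SD, n = 4 each; edgeR adjusted p = 0.00347), a 1.23-fold rise.

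The other repressors did not pass the test. Mxi1 (ENSMUSG00000025025), which encodes another Max-binding partner of Sin3 and is the best expressed gene of its family by TPM, ranged from 101 to 117 CPM in DS38 and from 112 to 118 CPM in DMSO (log2 difference -0.04 ± 0.046 SE, edgeR adjusted p = 0.479). Mxd3 (ENSMUSG00000021485) ranged from 15.8 to 19.3 CPM in DS38 and from 17.7 to 20.4 CPM in DMSO (log2 difference -0.11 ± 0.074 SE, edgeR adjusted p = 0.236). Mnt (ENSMUSG00000000282), the broadly expressed repressor that pairs with Max or Mlx, ranged from 31.9 to 36.0 CPM in DS38 and from 30.4 to 34.5 CPM in DMSO (log2 difference 0.04 ± 0.056 SE, edgeR adjusted p = 0.561). The groups overlapped for each of these genes. Over the network, 4 of the 10 genes did not overlap between the groups, all of them higher in DS38, against 17.3% of all tested genes that were higher in DS38 without overlap and 36.1% without overlap in either direction.

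Mlx, the partner of the Mondo proteins, passed the test by a narrow margin. Mlx (ENSMUSG00000017801) stood at 34.0, 35.1, 33.5 and 39.2 CPM in DS38, against 34.2, 32.2, 30.7 and 29.7 CPM in DMSO. The groups overlapped, since DMSO replicate 1 lay above DS38 replicates 1 and 3, and DS38 replicate 4 was the highest. The log2 fold change was 0.16 ± 0.060 SE (35.5 ± 2.58 CPM in DS38 and 31.7 ± 1.96 CPM in DMSO, SD, n = 4 each; edgeR adjusted p = 0.0462). The call was lost in 10 of the 18 alternatives, with adjusted p-values from 0.00205 to 0.138, among them the fits without DS38 replicate 2 (adjusted p = 0.0817) or 4 (0.138) and without DMSO replicate 2 (0.0736), 3 (0.116) or 4 (0.134).

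Reads of some members cannot be fully told apart from those of neighbours, as the strand setting of the counting is not given in the sources used here. In a GENCODE annotation of the earlier build, Mlx overlaps Psmc3ip on the opposite strand by 385 bases, and Mxd3 overlaps Prelid1 on the opposite strand by 105 bases. These neighbours are named for their position. Psmc3ip, a recombination gene, fell to 21.6 CPM in DS38, against 31.1 CPM in DMSO (log2 fold change -0.52, edgeR adjusted p = 1.60e-05), while Prelid1, a mitochondrial lipid transfer gene, stood at 135 CPM in DS38 and 138 CPM in DMSO and did not pass (edgeR adjusted p = 0.712). The other overlapping genes had at most 129 counts over all 8 libraries. The fold change was also somewhat higher in longer genes across all tested genes (Spearman's rho 0.223 across genes, which share the libraries). With that trend removed, which was tried after seeing the data, Mycl (log2 fold change 0.41), Mxd4 (0.28), Mxd1 (0.27), Mlx (0.21) and Max (0.13) were still called.

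Levels were compared between genes as TPM, which divides counts by the deposited gene length and scales to a common sum within a library. TPM values were used for order and shares within a library only, since they carry no TMM adjustment and are scaled by gene length. On this scale Mycn averaged 61.5 TPM in DS38 and 60.0 TPM in DMSO, the opposite direction to its CPM. Missing TMM factors alone did not turn the direction, as on library totals alone Mycn had a log2 difference of -0.017. In DMSO, Max was the most abundant member at 145 ± 2.12 TPM (SD, n = 4), above Mycl at 119 ± 6.56 TPM without overlap. In DS38 the 2 genes had overlapping ranges, Mycl at 170.5 ± 10.3 TPM and Max at 169.7 ± 3.74 TPM (SD, n = 4 each), and Mycl was the higher in 2 of 4 libraries. A middle tier held Mycn, Mxi1, Mlx and Myc, whose neighbouring ranges overlapped in both groups. It spanned 60.3 ± 3.44 TPM for Myc to 66.8 ± 4.25 TPM for Mlx in DS38, and 53.5 ± 2.56 TPM for Myc to 60.0 ± 1.67 TPM for Mycn in DMSO.

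The less abundant members were repressors. In DS38, Mxd4 at 30.3 ± 2.65 TPM, Mxd3 at 27.8 ± 2.35 TPM and Mnt at 27.4 ± 2.38 TPM (SD, n = 4 each) overlapped with each other. In DMSO, Mxd3 at 27.8 ± 1.75 TPM stood above Mnt at 24.6 ± 1.18 TPM without overlap, and Mnt overlapped with Mxd4 at 22.4 ± 0.684 TPM. Mxd1 was the lowest member, at 10.7 ± 0.869 TPM in DS38 and 8.03 ± 0.753 TPM in DMSO.

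The make-up of the network is given as shares of its summed TPM. The Myc genes together held 42.6 ± 0.718% of that sum in DS38 and 40.5 ± 0.929% in DMSO, Max 24.8 ± 0.855% in DS38 and 25.3 ± 0.846% in DMSO, and the Mxd family with Mxi1 18.9 ± 0.569% in DS38 and 20.3 ± 0.229% in DMSO (SD, n = 4 each). Shares of a sum move against each other, so a rise of Mycl lowers the share of every other gene. Within the Myc genes, Mycl held 58.3 ± 0.464% in DS38 and 51.1 ± 0.958% in DMSO, and Mycn held 21.0 ± 0.582% in DS38 and 25.8 ± 0.716% in DMSO. Myc held 20.6 ± 0.279% in DS38 and 23.0 ± 0.637% in DMSO. The groups did not overlap in any of these shares, although Mycn and Myc did not pass the test. Within the Mxd family, Mxd4 held 23.3 ± 0.558% in DS38 and 19.2 ± 0.517% in DMSO, with no overlap, and Mxi1 held 44.2% to 49.0% in DS38 and 47.9% to 52.0% in DMSO, with overlap. Mnt held 3.98 ± 0.171% of the network in DS38 and 4.28 ± 0.156% in DMSO, and Mlx 9.74 ± 0.652% in DS38 and 9.65 ± 0.374% in DMSO.

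**Figure D3:**
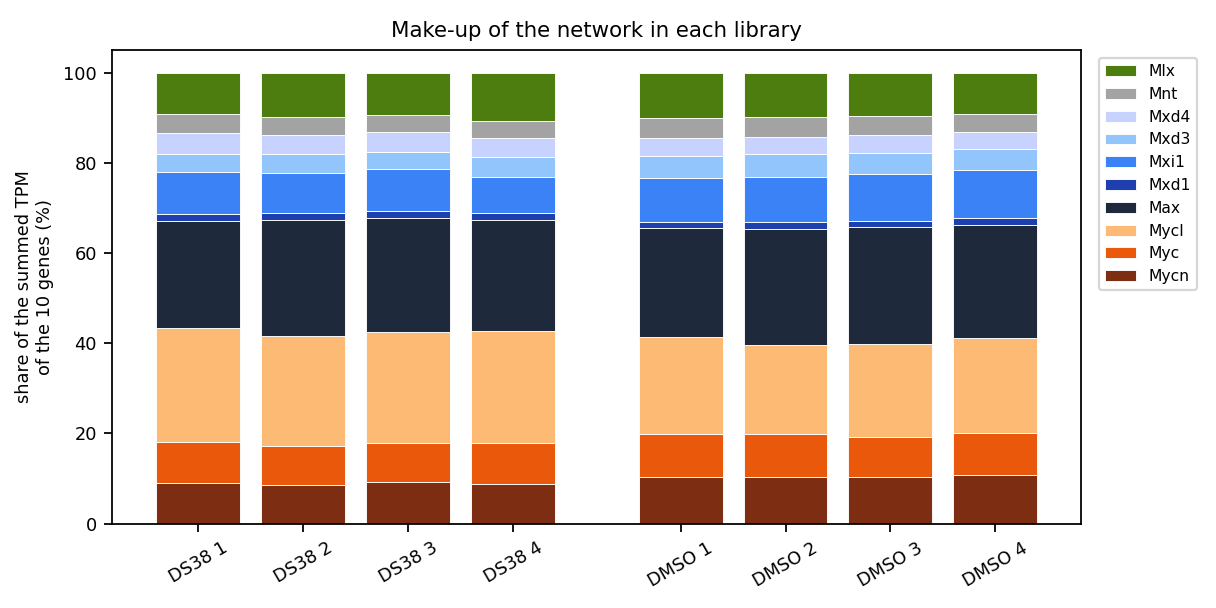
Share of the summed TPM of the 10 network genes held by each gene (y axis, percent) in each library, with DS38 libraries on the left and DMSO libraries on the right. Mycl and Max make up the largest bands in every library, and the 3 Myc genes together reach 42.6% on average in DS38 and 40.5% in DMSO.

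The genes whose profile over the 8 libraries came closest to that of Mycl were sought by the root mean square difference of log2 CPM centred on each gene's mean, among 10226 other genes that averaged 4 CPM or more. They were Dgkz, a diacylglycerol kinase gene (difference 0.021), Clmp, a cell adhesion gene (0.026), and Fbxl18, an F-box protein gene (0.028). For Mycn they were Elmod2 (0.028), the corepressor gene Rcor2 (0.030) and Arfgap1 (0.031). Of these 0 passed the test, as Mycn did not, and Dgkz, Clmp and Fbxl18 rose, as Mycl did. Both outcomes largely follow from the choice by likeness and are no further result.

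Partners of Max and Mlx outside the 10 genes were examined as well. Mlxip, which encodes the glucose-sensing MondoA that pairs with Mlx, rose to 56.0 ± 1.61 CPM in DS38, against 48.0 ± 5.14 CPM in DMSO (SD, n = 4 each). Its log2 fold change was 0.23 ± 0.062 SE (adjusted p = 0.00842 from edgeR). Mga, the giant Max partner, stood at 218 ± 18.9 CPM in DS38 and 204 ± 21.9 CPM in DMSO and did not pass (edgeR adjusted p = 0.357), except without DMSO replicate 4, where both genes were called. Mlxipl did not reach the filter on low counts. Of 3 genes known to answer to Mlx and its Mondo partners, 0 of the 2 tested were called. Txnip, an inhibitor of glucose uptake, stood at 89.0 ± 10.6 CPM in DS38 and 89.2 ± 3.15 CPM in DMSO, and its relative Arrdc4 had a log2 difference of -0.17 (edgeR adjusted p = 0.0574). Without DMSO replicate 4, 1 gene of this list fell.

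Cofactors of the network were counted in the same way. Among 16 Myc coactivator genes there were 6 rises and 6 falls, while 4 did not pass, and the list had a median log2 fold change of 0.01, against -0.01 over all tested genes. That is 37.5% in each direction, against 18.8% of all tested genes that rose and 20.7% that fell. Ruvbl2, an ATPase of the Tip60 complex, fell (log2 fold change -0.33), as did the chromatin remodeller subunit gene Actl6a (-0.28) and the elongation factor gene Paf1 (-0.22), while the acetyltransferase gene Crebbp rose (0.27). Among 16 tested Sin3 complex genes there were 3 rises and 4 falls, while 9 did not pass, and the median was -0.06. The 18.75% that rose and 25.0% that fell are near the shares over all tested genes. The histone-binding subunit genes Rbbp7 (log2 fold change -0.35) and Rbbp4 (-0.14) and the Sin3-associated gene Sap30 (-0.41) fell, and Sap130, another Sin3-associated gene, rose (0.21). Ing2, which fell, and Ncor1 and Ing1, which rose, complete the counts and were chosen after their values were seen. Scaled by library totals alone, the split of this list turned to 5 rises and 2 falls, and rises numbered 1 without DS38 replicate 1 or 2 and without DMSO replicate 1 or 2.

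Among 17 genes that act on the stability of Myc proteins there were 3 rises and 5 falls, while 9 did not pass, and the list had a median log2 fold change of -0.04. Of this list 17.6% rose and 29.4% fell, against 18.8% of all tested genes that rose and 20.7% that fell, so the rises are near the background. Usp36, a nucleolar deubiquitinase of c-Myc, fell (log2 fold change -0.28), as did the phosphatase subunit gene Ppp2r5a (-0.26) and the ubiquitin ligase gene Skp2 (-0.25), and Trpc4ap, an adaptor of a ligase for Myc, rose (0.27). Axin1 and Gsk3a, which fell, and Plk1 and Cip2a, which rose, complete the counts, chosen likewise.

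Over 3 lists of genes known to be induced by Myc, 46 of the 85 tested genes fell and 6 rose, with a median log2 fold change of -0.14. Of all tested genes 20.7% fell and 18.8% rose, with a median of -0.01. The lists were chosen with earlier results of these data known, so these counts are a description and not an independent test. The metabolism and growth list had 33 tested genes, of which 69.7% (23) fell, against 20.7% of all tested genes. In the same list 2 genes rose, and its median was -0.17. Mthfd2, a mitochondrial folate enzyme gene, fell to 131 ± 4.32 CPM in DS38, against 344 ± 24.7 CPM in DMSO (SD, n = 4 each). Its log2 fold change was -1.39 ± 0.049 SE (adjusted p = 1.74e-13 from edgeR). The amino acid transporter genes Slc7a5 (log2 fold change -1.13) and Slc1a5 (-1.09) and the serine enzyme gene Shmt2 (-0.90) fell as well. These 4 genes, which had the smallest p in the list, are also known targets of Atf4, the transcription factor of the amino acid response. Without them 19 of 29 genes fell and 2 rose, with a median of -0.15. The rest of the list was not screened for Atf4 targets, and a part of Atf4 in these falls was not tested. The rises were those of the transferrin receptor gene Tfrc and the purine enzyme gene Impdh1, chosen after their values were seen.

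The cell cycle list had 14 tested genes, of which 71.4% (10) fell and 1 rose (7.14%), with a median log2 fold change of -0.22. The shares over all tested genes were 20.7% that fell and 18.8% that rose. Cdca7, a gene first described as responsive to Myc, fell to 210.2 ± 5.37 CPM in DS38, against 263 ± 6.56 CPM in DMSO (SD, n = 4 each). Its log2 fold change was -0.32 ± 0.038 SE (adjusted p = 2.70e-06 from edgeR). The S-phase transcription factor gene E2f2 (log2 fold change -0.48) and the replicative helicase genes Mcm5 (-0.38) and Mcm4 (-0.27) fell too. The riser was Bub1b, a spindle checkpoint gene chosen after its value was seen (0.18). Tert did not reach the filter on low counts.

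Ribosome biogenesis genes are a further class known to be induced by Myc. In this list of 38 tested genes, 34.2% (13) fell and 7.89% (3) rose, with a median log2 fold change of -0.06. Over all tested genes, 20.7% fell and 18.8% rose. Wdr74 (log2 fold change -0.39), a factor of the large subunit's assembly, and the ribosome-binding growth regulator gene Pa2g4 (-0.39) fell. Polr1a, which encodes the largest subunit of RNA polymerase I, rose (0.28), as did the nucleolar gene Mybbp1a (0.24) and, outside the naming rule, Rrp12 (0.17). Scaled by library totals alone, 10 of these genes fell and 8 rose, and across all genes that scaling moved the share of called genes that rose to 64.3%, against 47.5% with TMM.

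**Figure D4:**
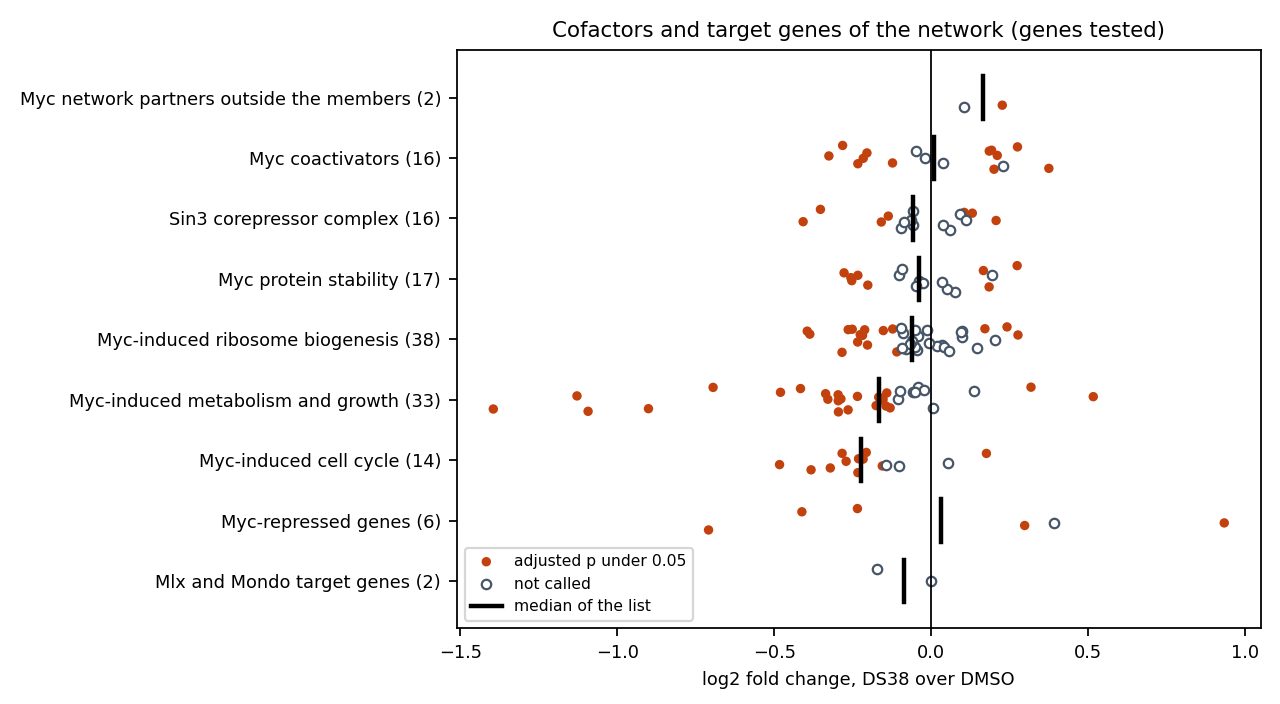
Log2 fold change, DS38 over DMSO (x axis), of each tested gene in 9 lists of partners, cofactors and target genes of the network, with the number tested in brackets; filled points passed the test, open points did not, vertical spread within a list carries no meaning and black bars mark medians. The medians of the Myc-induced metabolism (-0.17) and cell cycle (-0.22) lists lie to the left of 0, and Mthfd2 lies farthest left at -1.39.

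Of 10 genes known to be repressed by Myc, 6 were tested, of which 3 fell and 2 rose, although the median log2 fold change was 0.03. That is 50% that fell and 33.3% that rose, against 20.7% and 18.8% of all tested genes, in a list of only 6. The fallers were the cyclin-dependent kinase inhibitor genes Cdkn1a (log2 fold change -0.71) and Cdkn1b (-0.23) and the zinc finger gene Klf6 (-0.41). Gadd45a, a stress-induced gene, rose (0.30), as did, outside the naming rule, the chaperone gene Clu (0.93), which was low at 1.65 ± 0.468 CPM in DS38 and 0.887 ± 0.318 CPM in DMSO (SD, n = 4 each), with overlap. The 4 others, Cdkn1c, Cdkn2b, Ndrg2 and Thbs1, did not reach the filter. Without DS38 replicate 2, 1 gene of this list rose.

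Among the Myc-induced lists, the E-box was in the promoter windows of 9 of 29 metabolism and growth genes (31.0%), 9 of 33 ribosome biogenesis genes (27.3%) and 2 of 12 cell cycle genes (16.7%), against 11.6% of the 10150 tested genes with a matched window. Of the 20 Myc-induced genes with the E-box, 9 fell and 1 rose, with a median log2 fold change of -0.08. Of the 54 without it, 29 fell and 4 rose, with a median of -0.14. The other 11 Myc-induced genes had no matched window, and of these 8 fell and 1 rose, with a median of -0.27. Over all tested genes with a matched window, 21.1% of the 1174 with the E-box rose and 23.7% fell, against 21.3% that rose and 22.6% that fell of the 8976 without it.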

How the data were processed

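The 8 mRNA libraries of MB21 cells were grouped by their titles as 4 of DS38 and 4 of DMSO. The table deposited by the authors holds whole-number read counts per gene and each gene's length in bases, another measure given per the file headers, with no normalization. The tools in the submitters' processing notes are edgeR, R 4.1.0, Subread 2.0.3, featureCounts and STAR 2.7.9a, with mouse build GRCm39 and human build GRCh38.p13, their roles unstated. How strand and multiply mapped reads were handled, and which annotation was used, is not given in the sources used here.

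Identifiers were given symbols from a GENCODE mouse table of an earlier build, with 52083 of 55416 matched, as were all 185 entries of 15 gene lists. The test was that of edgeR 4.0.16 under R 4.3.3 (robust quasi-likelihood, TMM factors of 0.9753 to 1.032, filterByExpr with its minimum of 10 counts), adjusted by Benjamini-Hochberg over 15133 genes. The standard error was taken as the size of the log2 fold change over the root of its F value. The common biological coefficient of variation was 5.53%. The test was first checked on simulated counts. CPM values are TMM-adjusted, and TPM values were computed from the deposited lengths. The log2 profiles used for likeness had 0.5 CPM added. Floors use 3 counts and cover counting error only.

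The members and lists were chosen with earlier results of these data known. Named genes were all members, up to 4 genes with the smallest p in each list and the 3 closest profiles to Mycn and to the member with the smallest p; exceptions are stated. Alternatives were other size factors, library totals, DESeq2 1.42.0, limma-voom (3.58.1), other filters, a fit that was not robust, a replicate block, libraries left out and, added after seeing the data, a length correction.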

Additional observations from a re-analysis of the deposited data

Results flagged for a closer look

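A library was set apart from the other 3 of its group where its gap to the nearest of them divided by the group's range exceeded Dixon's critical value, in 96 groups of 4 libraries (the named genes in each group). Chance alone gives such a gap in about 1 in 20 groups. Only 2 were found in the 96, fewer than that rate, so they are no excess. Mxd1 stood at 21.5 CPM in DS38 replicate 1, against 19.5 to 19.9 CPM in the other DS38 libraries. Without that library the log2 fold change of Mxd1 was 0.27 (edgeR adjusted p = 0.0125). Txnip stood at 93.9 CPM in DMSO replicate 2, against 87.3 to 88.1 CPM in the other DMSO libraries.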

How the results depend on the processing

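Over 18 alternatives, 540 of 576 values kept their direction and call or, for counts, stayed within 1.5 times the value reported. Mycl, Mxd1 and Mxd4 rose in all 18 and 0 members fell in any. Members that rose numbered 3 without a filter on low counts and 3 to 5 with each library left out in turn (3 without DS38 replicate 2). Max had a log2 fold change of 0.11 without a filter and of 0.11 to 0.13 with a library left out. Mlx, no longer called, had 0.15 under DESeq2, 0.15 under limma-voom, 0.15 without a filter, 0.16 without the robust option and 0.16 with a replicate block. With a library left out Mlx ran from 0.11 to 0.20, and it was still called without DS38 replicate 1 (0.18), DS38 replicate 3 (0.19) or DMSO replicate 1 (0.20). Mxi1, never called, turned to 0.017 on library totals, and ran from -0.071 to 0.00023 with a library left out.

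Library totals alone gave 3915 rises and 2171 falls over all genes, 5 rises and 2 falls in the Sin3 list and 8 rises in the ribosome biogenesis list. DESeq2 gave 1 rise in the Sin3 list. The stricter filter gave 5 rises in the ribosome biogenesis list and 1 in the repressed list. Without both libraries numbered 1 there were 3 coactivator rises, and 1 rise and 2 falls in the Sin3 list. With the length trend removed there were 6 ribosome biogenesis rises and 2 cell cycle rises. Leaving out each library gave 1 to 4 rises and 2 to 4 falls in the Sin3 list (2 falls without DS38 replicate 1), 1 to 3 rises in the repressed list, 1 to 2 among the network's other partners and 0 to 1 falls among Mlx targets. The cause of these shifts was not tested.

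Same-numbered libraries correlated in their deviations at 0.357, -0.0809, 0.07 and -0.13 for replicates 1 to 4. These values alone do not settle whether same-numbered libraries were paired. The replicate block gave 4 members that rose, 0 that fell and 1 Sin3 rise, and 2546 rises and 3048 falls over all genes. Replicate 1 alone correlated best with its own number.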
